A study of Mus musculus with 8 samples.

Results

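The 9 receptor-chain genes for interleukin-2 and related cytokines were described across 4 groups of mouse splenic regulatory T cells (Tregs), the CD4 T cells that restrain immune responses. The genes were Il2ra, Il2rb, Il2rg, Il7r, Il4ra, Il15ra, Il21r, Il6ra and Il6st. They were picked by name, 9 of the 55487 genes in the deposited expression table, and all 9 were detected in all 8 libraries. Il6ra and Il6st belong to the interleukin-6 receptor family and do not pair with the common gamma chain, so the set covers both families.

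Spleen Tregs were taken from mice without tumors, and their RNA was sequenced to compare Tregs that lack SRC-3 with controls. SRC-3 is a transcriptional coactivator encoded by Ncoa3. KO YFP+ (numbers 84 and 85) and KO YFP- (numbers 84 and 85) were the YFP-positive and YFP-negative Tregs labelled SRC-3 KO, on a background mixed from C57BL/6 and 129SvEv. WT YFP+ (numbers 23 and 24) were YFP-positive Tregs of C57BL/6 wild-type controls, and SRC-3ff (numbers 68 and 72) were Tregs of 129SvEv mice given as a second wild-type control, with no YFP sort in the label. The labels give no age, no sex, no meaning for YFP, no driver of the deletion and no deleted exons. No comparison between a knockout and a control group is therefore free of a strain difference, and comparisons with SRC-3ff also differ in the sort.

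The receptor for interleukin-2 is built from an alpha chain (Il2ra, CD25), a beta chain (Il2rb, CD122) and the common gamma chain (Il2rg, CD132). The alpha chain raises the affinity for the cytokine, and the beta and gamma chains carry the signal through JAK1, JAK3 and STAT5, on which Tregs depend for survival and for keeping Foxp3 expressed. Conventional Treg phenotypes are CD25 high and CD127 (Il7r) low. The gp130 chain (Il6st) signals for interleukin-6 and several other cytokines, mainly through STAT3.

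Values are FPKM (fragments per kilobase, scaled to sequencing depth), which are per length and so can be set side by side between genes. Differences are log2 fold changes of FPKM + 1 with the standard error and 95% interval from limma, and adjusted p is limma's p corrected over the 14134 genes tested (Benjamini-Hochberg, threshold 0.05). All 9 genes passed the filter of at least 1 FPKM in at least 2 libraries. The 6 comparisons share libraries with each other, so their results are given side by side and are not independent. In bulk RNA, fewer cells of a type and less RNA per cell cannot be told apart.

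On GRCm38 with the GENCODE M21 annotation, the genes lie on 6 chromosomes, and pairs of them are neighbours. Il2ra (ENSMUSG00000026770) lies at chr2:11642807-11693193 on the plus strand, and Il15ra (ENSMUSG00000023206), the high-affinity interleukin-15 chain, follows at chr2:11705290-11734317 on the same strand. The gap between these genes is 12096 bases, with 0 protein-coding genes in it. Il4ra (ENSMUSG00000030748, chr7:125552120-125579474, plus strand) and Il21r (ENSMUSG00000030745, chr7:125603429-125633570, plus strand) are separated by 23954 bases, again with 0 protein-coding genes in it. The others stand apart from these pairs. Il2rb (ENSMUSG00000068227) lies at chr15:78479256-78495271 and Il7r (ENSMUSG00000003882) at chr15:9505788-9530176, both on the minus strand. Il2rg (ENSMUSG00000031304) lies at chrX:101264378-101268255 and Il6ra (ENSMUSG00000027947) at chr3:89864059-89913196, both on the minus strand. Il6st (ENSMUSG00000021756) lies at chr13:112464070-112510086 on the plus strand.

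The start-site regions of Il2ra and Il7r are shown because these genes had the largest and opposite differences between sorts. The sequences are the bases just before the start that RefSeq gives on GRCm38.p6, up to the first base in an annotated exon, 5′ to 3′ on the gene's strand, with motif matches in capitals. For Il7r the GENCODE gene begins farther upstream, at base 9530176, so its window lies inside that gene and not before it. The Il2ra window (chr2:11642542-11642791, plus strand) holds none of the 4 motifs searched. The Il7r window (chr15:9529877-9530040, minus strand) holds a STAT-type match whose first base is at -142 from the start and an ETS-type match at -48.
Il2ra: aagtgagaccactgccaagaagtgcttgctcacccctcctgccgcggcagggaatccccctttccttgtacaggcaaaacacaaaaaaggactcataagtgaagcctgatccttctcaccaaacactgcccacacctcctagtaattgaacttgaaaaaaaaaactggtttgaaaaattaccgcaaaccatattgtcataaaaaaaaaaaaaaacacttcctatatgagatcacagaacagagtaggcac
Il7r: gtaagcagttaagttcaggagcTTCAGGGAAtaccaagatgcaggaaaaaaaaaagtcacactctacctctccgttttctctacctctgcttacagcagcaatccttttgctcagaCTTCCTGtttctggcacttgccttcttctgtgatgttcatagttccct

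The motifs were searched on both strands in windows of 250 bases before and 50 bases after the start, for the 9 RefSeq promoters of the 8 genes that have one in the table (all but Il2rb). They were TTCNNNGAA (STAT type), TGTTTAC (forkhead type), TGANTCA (AP-1 type) and CAGGAAG (ETS type, which reads CTTCCTG on the other strand). Of 32851 mouse promoters of that length, 8.3% hold the STAT letters, 3.65% the forkhead letters, 7.81% the AP-1 letters and 13.3% the ETS letters. The other matches were ETS letters in Il2rg and Il6ra, forkhead letters in Il21r and AP-1 letters in the second of the Il15ra promoters. A match describes letters in a window and does not show binding.

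As a check of the labels, Ncoa3 measured 10.9 and 10.2 FPKM in KO YFP+, 32.1 and 32.2 in KO YFP-, 46.3 and 42.7 in WT YFP+, and 49.7 and 35.4 in SRC-3ff. It was lowest in KO YFP+, and the name KO YFP- follows the label only. Foxp3, the transcription factor that defines Tregs, measured 21.02 and 22.9 FPKM in KO YFP+, 161 and 113 in KO YFP-, 31.0 and 19.9 in WT YFP+, and 205 and 151 in SRC-3ff. Foxp3 was thus present in all libraries and lower in both YFP+ groups than in KO YFP- and SRC-3ff. The FPKM sum was 384107 to 416393 per library, the number of genes at 1 FPKM or more 12573 to 13251, and the depth is unknown. Antigen receptor segments took 2.73% to 3.34% of the sum in YFP+ libraries and 4.86% to 9.38% in the other 4.

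The common gamma chain was the most abundant receptor chain in every group. Il2rg measured 665 and 720 FPKM in KO YFP+, 753 and 776 in KO YFP-, 701 and 742 in WT YFP+, and 705 and 766 in SRC-3ff. It made up 48.7% to 56.9% of the summed level of the 9 genes, and that sum lay between 1265 and 1474 FPKM in the 8 libraries. Il2rg in KO YFP- overlapped SRC-3ff and lay above both YFP+ groups, and the other 3 groups overlapped each other. A predicted protein-coding gene on the same strand, Gm20489, overlaps Il2rg and was listed at 400 to 487 FPKM, so the division of reads between them is uncertain.

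**Figure D1:**
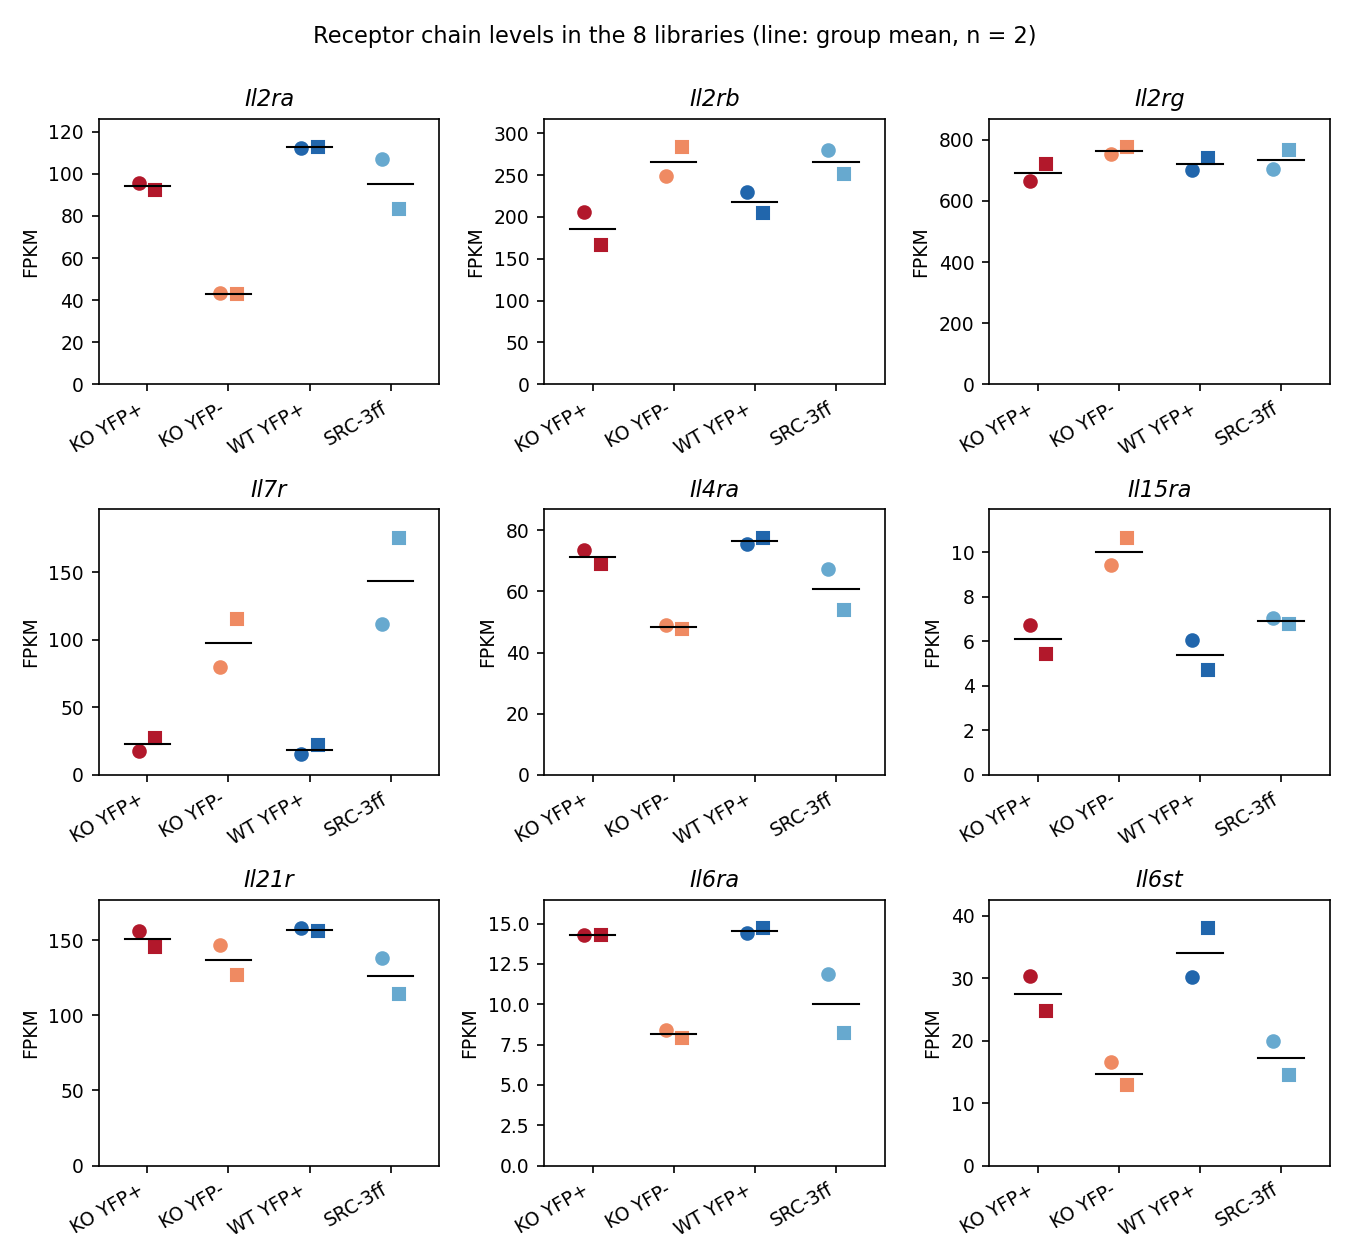
FPKM of the 9 receptor genes in each of the 8 libraries (linear axis), one panel per gene. KO YFP+, KO YFP-, WT YFP+ and SRC-3ff run from left to right. Circles are the lower and squares the higher mouse number, and lines are group means. Il2ra is lowest in KO YFP- (43.1 FPKM on average) and Il7r is low in both YFP+ groups (22.6 in KO YFP+ and 18.6 in WT YFP+), while Il2rg lies between 665 and 776 FPKM throughout.

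The order of levels below Il2rg differed between the groups, mainly through Il7r. In KO YFP+ the order by mean was Il2rg, Il2rb, Il21r, Il2ra, Il4ra, Il6st, Il7r, Il6ra and Il15ra, where Il6st and Il7r overlapped. WT YFP+ had the same order, with no overlap between neighbours. In KO YFP-, Il7r stood between Il21r and Il4ra, and Il2ra came after Il4ra, ahead of Il6st, Il15ra and Il6ra. In SRC-3ff, Il7r came next after Il2rb and overlapped Il21r, followed by Il2ra, Il4ra, Il6st, Il6ra and Il15ra.

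KO YFP+ against WT YFP+ asks whether the receptor chains differ with the knockout within the YFP+ sort. No receptor chain was found higher or lower. Limma called 0 of 9, against 0.757% of all tested genes (0.304% higher and 0.453% lower). An unadjusted limma p under 0.05 was found for 0 of 9, against 10.4% of all tested genes. The libraries of the groups did not overlap for 4 of the 9 genes, against 40.0% of all tested genes.

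Il2ra measured 95.7 and 92.4 FPKM in KO YFP+ against 113 and 113 in WT YFP+, a log2 difference of -0.26 ± 0.12 (interval -0.55 to 0.03, limma adjusted p = 0.538). Both KO YFP+ libraries lay below both WT YFP+ libraries, but the difference did not pass. Il2rb, the signalling chain shared with interleukin-15, measured 206 and 166 in KO YFP+ against 230 and 205 in WT YFP+ (-0.23, interval -0.55 to 0.09, limma adjusted p = 0.627), with overlapping groups. Il2rg differed by -0.06 (interval -0.29 to 0.17). Il7r was the least well determined, with 17.6 and 27.6 FPKM in KO YFP+ against 15.3 and 21.9 in WT YFP+ (0.26 ± 0.32, interval -0.50 to 1.02), and without KO YFP+ 85 the difference was -0.055.

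The remaining chains did not pass either. Il4ra, the interleukin-4 chain that also forms the interleukin-13 receptor, measured 73.3 and 68.9 FPKM in KO YFP+ against 75.4 and 77.5 in WT YFP+ (-0.10, interval -0.38 to 0.17). Il21r, the interleukin-21 chain, measured 156 and 146 in KO YFP+ against 158 and 156 in WT YFP+ (-0.06, interval -0.34 to 0.23). Il6ra, the interleukin-6 binding chain, measured 14.3 and 14.3 in KO YFP+ against 14.4 and 14.7 in WT YFP+ (-0.03, interval -0.42 to 0.37). These 3 chains differed by little beside their standard errors. Il6st measured 30.4 and 24.8 in KO YFP+ against 30.2 and 38.0 in WT YFP+ (-0.30, interval -0.79 to 0.19). Il15ra measured 6.73 and 5.45 in KO YFP+ against 6.07 and 4.71 in WT YFP+ (0.15, interval -0.24 to 0.55). Neither group stood apart for these last 2 genes. A p above the threshold with 2 libraries a group does not show that the levels are equal.

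KO YFP+ against KO YFP- compares the sorts within the knockout label. Il2ra and Il4ra were higher and Il7r lower in KO YFP+. These 3 of 9 genes passed with limma, against 4.90% of all tested genes, 1.44% higher and 3.46% lower. An unadjusted limma p under 0.05 was found for 7 of 9, against 18.8% of all tested genes. The libraries did not overlap for 8 of the 9 genes, against 49.0% of all tested genes.

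Il2ra measured 95.7 and 92.4 FPKM in KO YFP+ against 43.5 and 42.8 in KO YFP-, 2.18 times as much in the mean. The log2 difference was 1.11 ± 0.12 (interval 0.82 to 1.40, limma adjusted p = 0.00604), and the call was lost without KO YFP+ 84 (1.08, adjusted p = 0.053). Il7r ran the other way, at 17.6 and 27.6 FPKM in KO YFP+ against 79.7 and 116 in KO YFP-, a mean ratio of 0.231. Its log2 difference was -2.07 ± 0.32 (interval -2.83 to -1.31, limma adjusted p = 0.0174). The Il7r call was lost without KO YFP+ 84 (adjusted p = 0.0954), KO YFP+ 85 (0.0584) or KO YFP- 85 (0.0919), and with no filter on low values (0.101), while the difference stayed between -1.76 and -2.38 with a library left out. Their printed start-site regions differ in the motif matches named above, and these data do not test a link.

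Il4ra measured 73.3 and 68.9 FPKM in KO YFP+ against 49.0 and 47.6 in KO YFP- (0.55 ± 0.12, interval 0.27 to 0.83, limma adjusted p = 0.0473). This call was the closest to the threshold. It was lost without KO YFP+ 84, KO YFP+ 85, KO YFP- 84 or KO YFP- 85 (limma adjusted p of 0.157 to 0.192), with the mouse number as a block (0.0731), with quantile normalization (0.0611) and with no filter on low values (0.126). Over the 9 genes, the number called was 0 when KO YFP+ 84 was left out, and 1 when KO YFP+ 85 or KO YFP- 85 was.

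The interleukin-6 family chains did not pass, though the libraries of the sorts did not overlap. Il6ra measured 14.3 and 14.3 FPKM in KO YFP+ against 8.41 and 7.90 in KO YFP- (0.74 ± 0.17, limma adjusted p = 0.0563). It passed with a minimum of 5 FPKM (adjusted p = 0.0474) and with quantile normalization (0.0487). Il6st measured 30.4 and 24.8 in KO YFP+ against 16.5 and 12.9 in KO YFP- (0.86 ± 0.21, limma adjusted p = 0.0666). The chains of the interleukin-15 receptor had their lower values in KO YFP+. Il15ra measured 6.73 and 5.45 in KO YFP+ against 9.42 and 10.7 in KO YFP- (-0.64 ± 0.17, limma adjusted p = 0.085), and Il2rb 206 and 166 in KO YFP+ against 249 and 283 in KO YFP- (-0.52 ± 0.14, limma adjusted p = 0.0857). Il2rg (-0.14, interval -0.37 to 0.09) and Il21r (0.14, interval -0.14 to 0.43) had intervals that include 0.

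**Figure D2:**
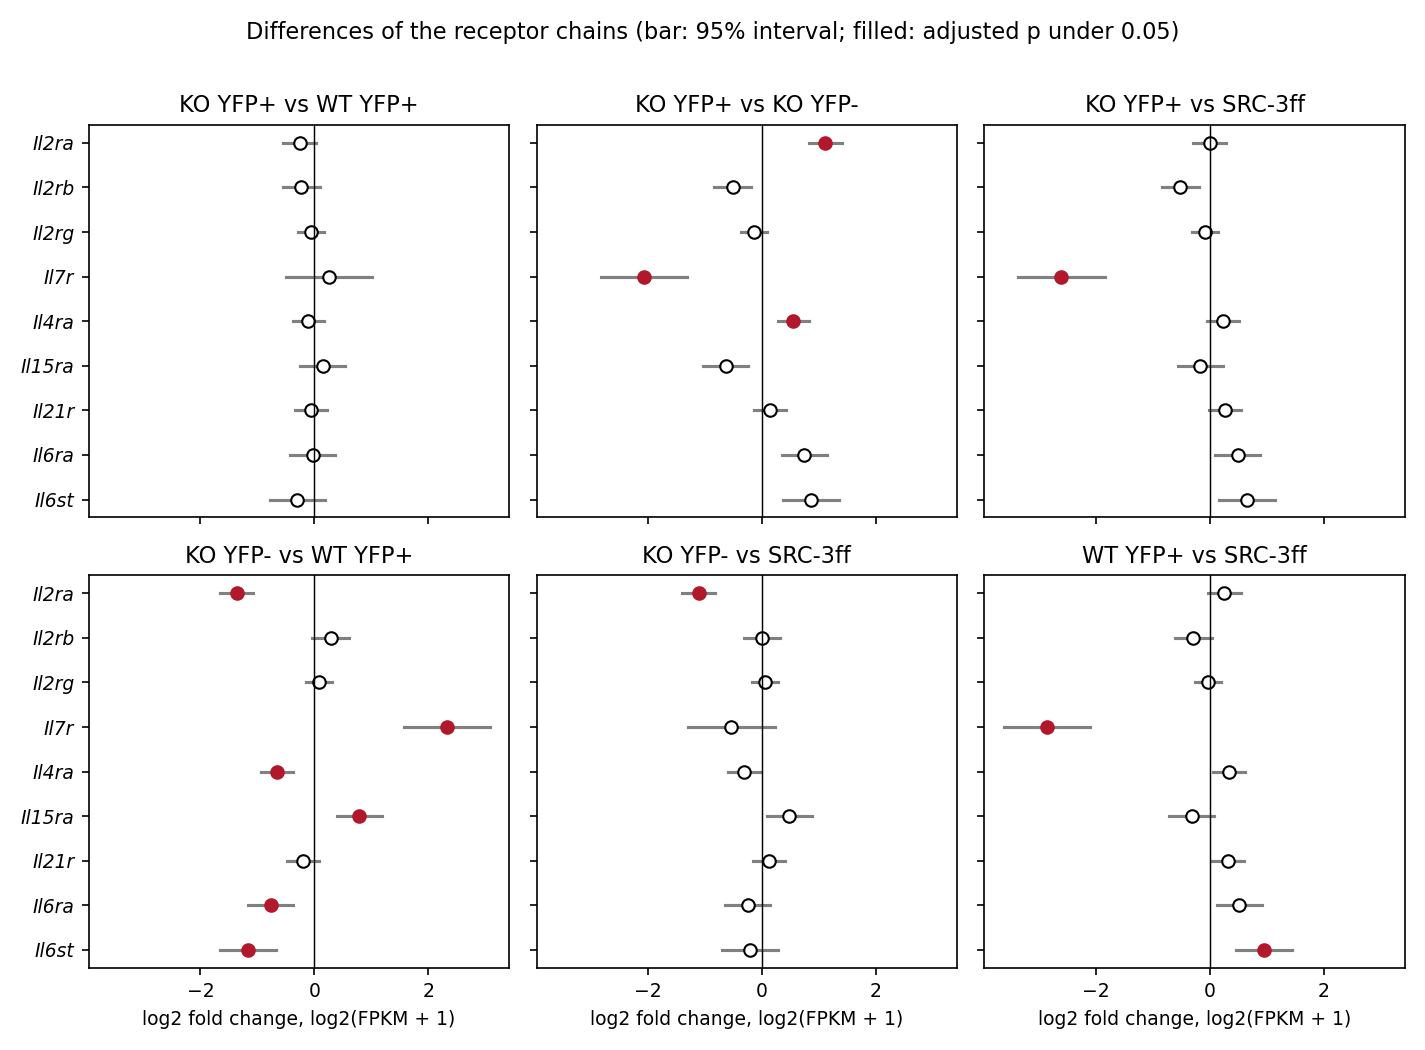
Log2 differences of the 9 receptor genes (FPKM + 1, log2 axis) with 95% intervals from limma for the 6 comparisons, one panel each, filled where the adjusted p is under 0.05. No interval in KO YFP+ against WT YFP+ excludes 0, and Il7r lies between -2.07 and -2.87 where a YFP+ group is set against KO YFP- or SRC-3ff, and at 2.33 in KO YFP- against WT YFP+.

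Cell type markers moved with the sort as well. The summed level of 7 effector T cell markers was 107 and 118 FPKM in KO YFP+ against 915 and 1422 in KO YFP-. Limma called 6 of 7 lower in KO YFP+. The sum was 104 and 84.0 in WT YFP+ against 584 and 889 in SRC-3ff, with 7 of 7 called lower in WT YFP+. The summed level of 6 resting T cell markers was 1625 and 1533 in KO YFP+ against 800 and 720 in KO YFP-. Limma called 5 of 6 higher in KO YFP+. The sum was 1798 and 1957 in WT YFP+ against 1283 and 1063 in SRC-3ff, with 3 of 6 called higher in WT YFP+. Over all tested genes, 3.46% were called lower and 1.44% higher in KO YFP+ than in KO YFP-. In WT YFP+ against SRC-3ff 5.49% were called lower and 3.73% higher. So the YFP+ libraries had more resting and less effector marker RNA. The part of these differences in the Il2ra, Il7r and Il4ra results was not tested.

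Markers of other lymphocytes also separated the sorts. The 6 NK cell markers summed to 1.05 and 0.377 FPKM in KO YFP+, 62.6 and 127 in KO YFP-, 1.05 and 0.876 in WT YFP+, and 35.9 and 75.1 in SRC-3ff. Ncr1, which encodes the NK receptor NKp46, was listed at 0 in all 4 YFP+ libraries, and Klra4 was listed at 0 in all but SRC-3ff 68. The 5 plasma cell markers summed to 90.4 and 104 in KO YFP+, 494 and 349 in KO YFP-, 85.9 and 126 in WT YFP+, and 371 and 957 in SRC-3ff. B cell and myeloid lists were low throughout. The 6 B cell markers summed to 23.0 and 23.0 in KO YFP+, 38.2 and 33.4 in KO YFP-, 14.0 and 15.4 in WT YFP+, and 30.5 and 50.2 in SRC-3ff, mostly Cd79b, while Pax5, the B cell identity factor, was at 0 in 5 of 8 libraries and at most 0.0076 in the others. The 6 myeloid markers summed to 0.749 to 1.96 FPKM in the YFP+ libraries and 3.65 to 6.39 in the other 4. The 2 CD8 T cell markers summed to 7.86 to 12.4 FPKM in the YFP+ libraries and 4.16 to 5.72 in the other 4, mostly Cd8b1. Cd8a was at most 0.283 FPKM and did not pass the filter. Of the lists of B cell and myeloid markers, 0 of 4 and 0 of 2 tested genes passed between KO YFP+ and KO YFP-, against 4.90% of all tested genes. The part of these cell types in the receptor differences was not tested.

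**Figure D3:**
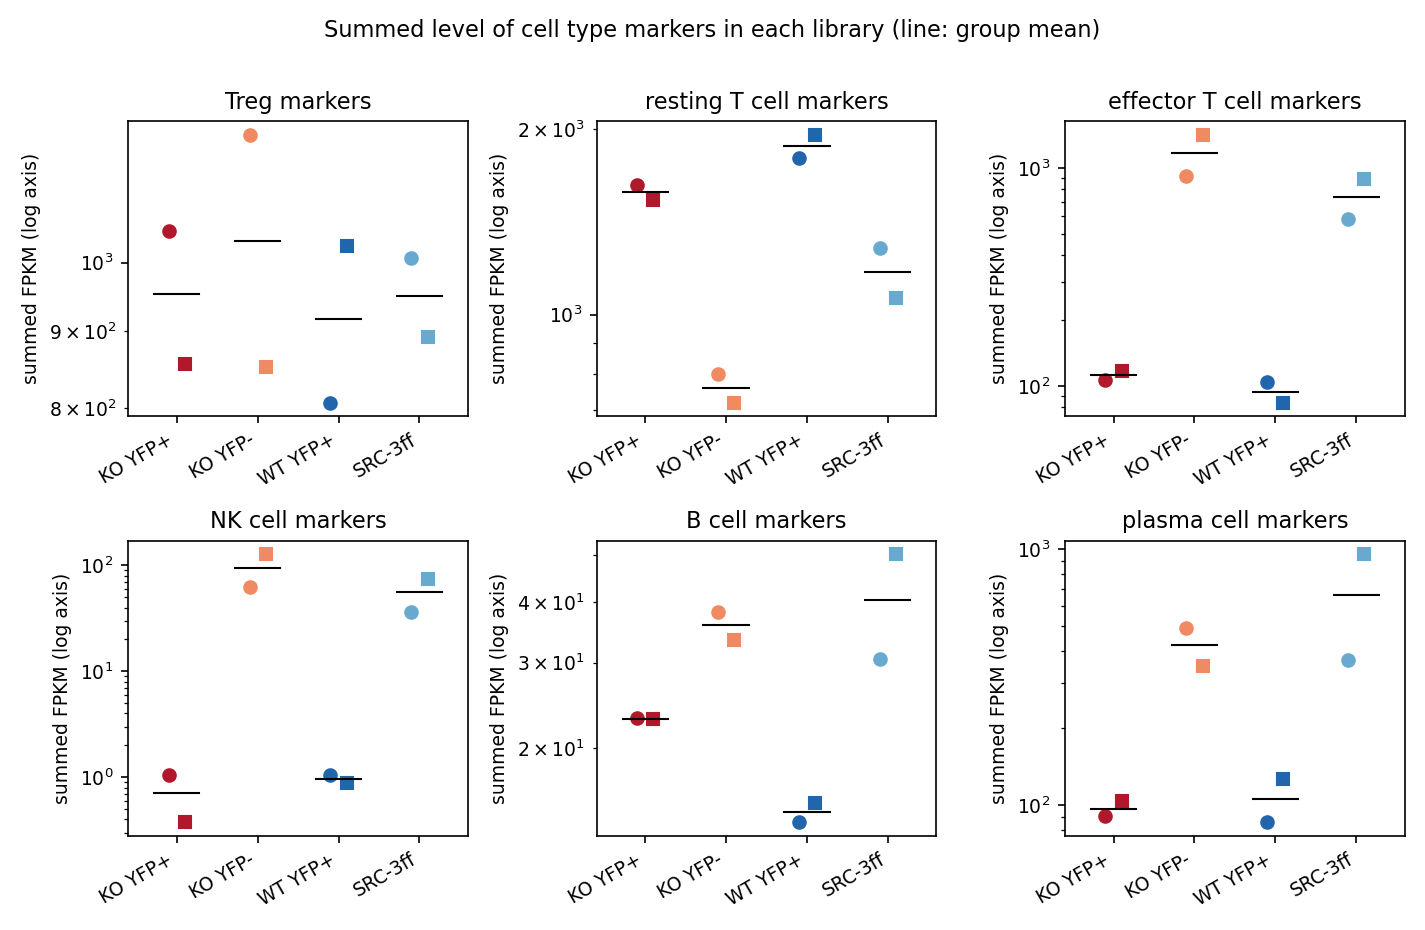
Summed FPKM of 6 marker lists in each library (log axes), with KO YFP+, KO YFP-, WT YFP+ and SRC-3ff from left to right; circles are the lower and squares the higher mouse number, and lines are group means. The Treg sum, with Cd3e as its largest part, overlaps between all groups, although Foxp3 is lower in both YFP+ groups. Effector T cell and NK cell sums in the YFP+ libraries (84.0 to 118 and 0.377 to 1.05 FPKM) lie below those in KO YFP- and SRC-3ff.

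The 7 Treg markers, which include Il2ra itself, summed to 1049 and 856 FPKM in KO YFP+, 1216 and 852 in KO YFP-, 807 and 1026 in WT YFP+, and 1006 and 893 in SRC-3ff. The groups overlapped in this sum. In KO YFP+ against KO YFP- limma called 1 of 7 higher, Il2ra, and 1 lower, Foxp3, against 1.44% and 3.46% of all tested genes. The other 5 did not pass.

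KO YFP+ against SRC-3ff sets the knockout YFP+ cells against the second control, which also differs in strain and sort. Il7r was lower, and it was the 1 gene of 9 called by limma, against 10.2% of all tested genes, 4.15% higher and 6.09% lower (689 higher and 705 lower with quantile normalization, against 587 and 861 here). Il7r measured 17.6 and 27.6 FPKM in KO YFP+ against 111 and 176 in SRC-3ff (-2.61 ± 0.32, interval -3.37 to -1.85, limma adjusted p = 0.00749), and it passed under all 11 alternative settings (highest adjusted p = 0.0487). Il2ra measured 95.7 and 92.4 in KO YFP+ against 107 and 83.1 in SRC-3ff, an overlap, with a difference of -0.00 (interval -0.29 to 0.29). Thus the Il2ra difference seen against KO YFP- was not seen against SRC-3ff.

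In the same comparison, 4 of 9 genes had an unadjusted limma p under 0.05, against 28.6% of all tested genes. The libraries did not overlap for 7 of 9, against 61.0% of all tested genes. Il2rb measured 206 and 166 FPKM in KO YFP+ against 280 and 252 in SRC-3ff (-0.52 ± 0.14, limma adjusted p = 0.0575), and it passed with a minimum of 5 FPKM (0.0494). Il6st measured 30.4 and 24.8 in KO YFP+ against 20.0 and 14.5 in SRC-3ff (0.66 ± 0.21, limma adjusted p = 0.0921). Il6ra measured 14.3 and 14.3 in KO YFP+ against 11.9 and 8.23 in SRC-3ff (0.49 ± 0.17, limma adjusted p = 0.111). Without SRC-3ff 68, Il6ra passed (adjusted p = 0.0385) and the number called was 2. Il4ra (0.23), Il21r (0.26), Il15ra (-0.17) and Il2rg (-0.09) had intervals that include 0.

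KO YFP- against WT YFP+ had the most receptor chains called, between groups that differ in sort, genotype label and strain. Il7r and Il15ra were higher and Il2ra, Il4ra, Il6ra and Il6st lower in KO YFP-. These 6 of 9 compare with 9.27% of all tested genes, 5.90% higher and 3.37% lower (655 higher and 627 lower with quantile normalization, against 834 and 476 here), and the libraries did not overlap for 9 of 9, against 53.3%. All 6 calls held with quantile normalization, which moved the median log2 difference of all genes to -0.08, against 0.03 as deposited.

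Il2ra measured 43.5 and 42.8 FPKM in KO YFP- against 113 and 113 in WT YFP+, 0.383 times the level (-1.36 ± 0.12, limma adjusted p = 0.00172), and passed under all 11 alternatives (highest adjusted p = 0.0195). Il7r measured 79.7 and 116 in KO YFP- against 15.3 and 21.9 in WT YFP+, 5.25 times the level (2.33 ± 0.32, limma adjusted p = 0.00708), and was lost with no filter on low values (0.0565). These 2 were the firmest of the 6 calls. Il6st measured 16.5 and 12.9 in KO YFP- against 30.2 and 38.0 in WT YFP+ (-1.16 ± 0.21, limma adjusted p = 0.0183), lost without WT YFP+ 24 (0.0963), without KO YFP- 85 (0.0935) and with no filter (0.0851).

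The other 3 calls were each lost without WT YFP+ 23, WT YFP+ 24, KO YFP- 84 or KO YFP- 85 and with no filter on low values. Il4ra measured 49.0 and 47.6 FPKM in KO YFP- against 75.4 and 77.5 in WT YFP+ (-0.65 ± 0.12, limma adjusted p = 0.0184, and 0.0724 to 0.091 with a library left out). Il15ra measured 9.42 and 10.7 in KO YFP- against 6.07 and 4.71 in WT YFP+ (0.79 ± 0.17, limma adjusted p = 0.0311, 0.0516 to 0.149 with a library left out, 0.0805 with only these 4 libraries fitted and 0.0505 with the mouse number as a block). Il6ra measured 8.41 and 7.90 in KO YFP- against 14.4 and 14.7 in WT YFP+ (-0.77 ± 0.17, limma adjusted p = 0.0339, 0.114 to 0.143 with a library left out and 0.0553 with the block). Over the 9 genes, 3 were called when WT YFP+ 23 or KO YFP- 84 was left out, and 2 when WT YFP+ 24 or KO YFP- 85 was. Il2rb (0.29), Il2rg (0.08) and Il21r (-0.20) did not pass.

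KO YFP- against SRC-3ff compares the groups without a YFP+ sort. Il2ra was lower in KO YFP-, and it was the 1 gene of 9 called, against 0.644% of all tested genes (0.375% higher and 0.269% lower). Il2ra measured 43.5 and 42.8 FPKM in KO YFP- against 107 and 83.1 in SRC-3ff (-1.11 ± 0.12, interval -1.40 to -0.82, limma adjusted p = 0.0265). The call was lost with the mouse number as a block (0.0501), with no filter (0.0529), with only these 4 libraries fitted (0.151), and without KO YFP- 84 (0.0901), KO YFP- 85 (0.0992) or SRC-3ff 68 (0.0765), where the difference was -0.93.

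The groups overlapped for the other chains except Il4ra and Il15ra, so 3 of 9 genes did not overlap, against 52.9% of all tested genes. Il4ra measured 49.0 and 47.6 FPKM in KO YFP- against 67.4 and 54.0 in SRC-3ff (-0.32 ± 0.12, limma adjusted p = 0.229). Il15ra measured 9.42 and 10.7 in KO YFP- against 7.07 and 6.81 in SRC-3ff (0.47 ± 0.17, limma adjusted p = 0.212). Both missed the threshold, with intervals that exclude 0. Il7r measured 79.7 and 116 in KO YFP- against 111 and 176 in SRC-3ff (-0.54, interval -1.30 to 0.22), and Il2rb 249 and 283 in KO YFP- against 280 and 252 in SRC-3ff (0.00, interval -0.32 to 0.32).

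WT YFP+ against SRC-3ff compares the controls with each other. Il7r was lower and Il6st higher in WT YFP+, so 2 of 9 genes passed, against 9.22% of all tested genes, 3.73% higher and 5.49% lower (705 higher and 648 lower with quantile normalization, against 527 and 776 here). Il7r measured 15.3 and 21.9 FPKM in WT YFP+ against 111 and 176 in SRC-3ff, 0.130 times the level (-2.87 ± 0.32, interval -3.63 to -2.11, limma adjusted p = 0.00356), and passed under all 11 alternatives (highest adjusted p = 0.0353). Il6st measured 30.2 and 38.0 in WT YFP+ against 20.0 and 14.5 in SRC-3ff (0.95 ± 0.21, limma adjusted p = 0.0352). Its call was lost without WT YFP+ 23 (0.0678), WT YFP+ 24 (0.16) or SRC-3ff 72 (0.19), with no filter (0.121) and with only these 4 libraries fitted (0.0764). A low Il7r level was therefore found in a YFP+ group with no knockout label too.

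The libraries of WT YFP+ and SRC-3ff did not overlap for 8 of 9 genes, against 57.2% of all tested genes. An unadjusted limma p under 0.05 was found for 5 of 9, against 26.2% of all tested genes. Il2ra measured 113 and 113 FPKM in WT YFP+ against 107 and 83.1 in SRC-3ff (0.25 ± 0.12, interval -0.04 to 0.54). Il4ra (0.34 ± 0.12, limma adjusted p = 0.125) and Il6ra (0.51 ± 0.17, limma adjusted p = 0.105) did not pass, though both did without SRC-3ff 68 (0.0486 and 0.0333), where the number called was 4. Il21r measured 158 and 156 in WT YFP+ against 138 and 114 in SRC-3ff (0.32 ± 0.12, limma adjusted p = 0.152).

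Whether the sort difference within the knockout label exceeds the difference between the controls was tested as (KO YFP+ minus KO YFP-) minus (WT YFP+ minus SRC-3ff). Strain differs inside the second difference as well as the sort. None of the 9 genes passed with limma, against 0.481% of all tested genes (0.170% positive and 0.311% negative). An unadjusted limma p under 0.05 was found for 1 of 9, near the 10.4% of all tested genes. For Il2ra the term was 0.85 ± 0.17 (interval 0.44 to 1.26, unadjusted p = 0.00173, limma adjusted p = 0.138). Behind it stand a difference of 1.11 for the knockout sorts and 0.25 for the controls. For Il7r it was 0.79 (interval -0.28 to 1.87, limma adjusted p = 0.609), behind which stand -2.07 and -2.87. A difference between the contrasts was thus not called for any receptor chain.

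Ratios within a library do not depend on its scaling, and they set chains of the same system against each other. Il2ra to Il7r was 5.44 and 3.34 in KO YFP+, 0.545 and 0.37 in KO YFP-, 7.37 and 5.14 in WT YFP+, and 0.959 and 0.473 in SRC-3ff. Il2ra exceeded Il7r in every YFP+ library and in none of the other 4. Il2ra to Il2rb was 0.465 and 0.556 in KO YFP+, 0.175 and 0.151 in KO YFP-, 0.489 and 0.551 in WT YFP+, and 0.382 and 0.33 in SRC-3ff. Il15ra to Il2ra, the cytokine-binding chains of the neighbouring pair, was 0.0703 and 0.059 in KO YFP+, 0.217 and 0.249 in KO YFP-, 0.0539 and 0.0418 in WT YFP+, and 0.0662 and 0.0819 in SRC-3ff. KO YFP- stood apart from the other 3 groups in both of these ratios.

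**Figure D4:**
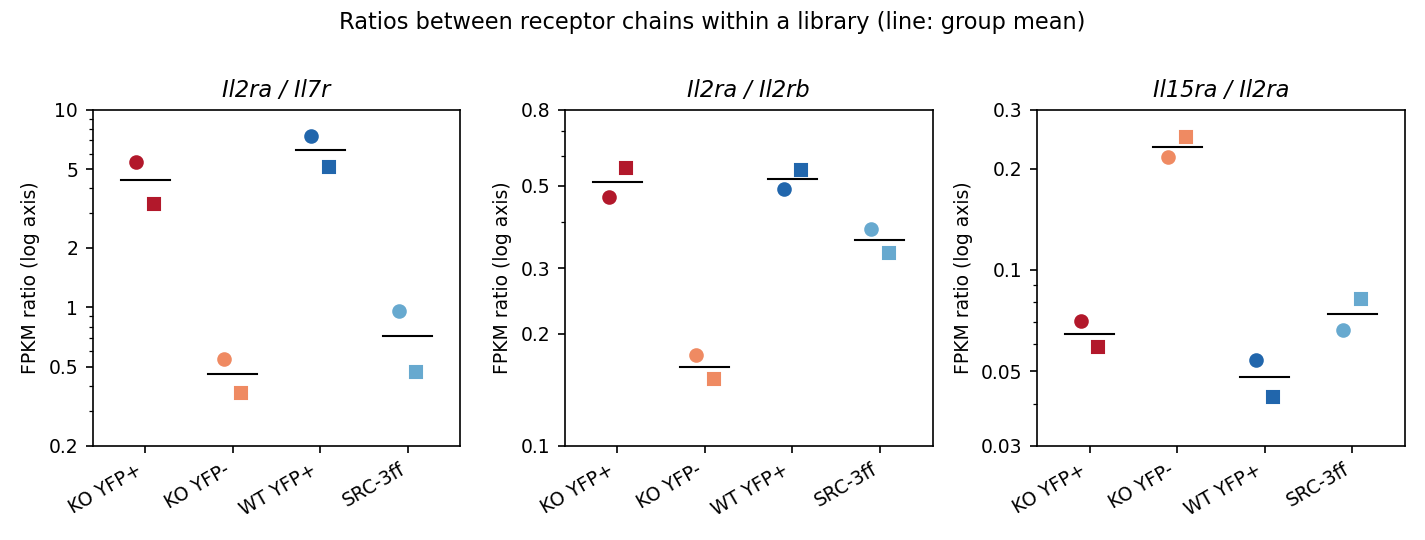
Ratios of FPKM between receptor chains within each library (log axes), with KO YFP+, KO YFP-, WT YFP+ and SRC-3ff from left to right; circles are the lower and squares the higher mouse number, and lines are group means. Il2ra to Il7r separates the YFP+ libraries (3.34 to 7.37) from the other 4 (0.37 to 0.959), and Il15ra to Il2ra is highest in KO YFP- (0.217 and 0.249).

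Other pairs were steadier. Il21r to Il4ra, the other neighbouring pair, was 2.13 and 2.12 in KO YFP+, 3.00 and 2.67 in KO YFP-, 2.10 and 2.01 in WT YFP+, and 2.05 and 2.12 in SRC-3ff. Outside KO YFP- this ratio stayed between 2.01 and 2.13. Il6st to Il6ra, the signalling and binding chains for interleukin-6, was 2.13 and 1.74 in KO YFP+, 1.97 and 1.64 in KO YFP-, 2.10 and 2.58 in WT YFP+, and 1.69 and 1.76 in SRC-3ff. Its values in KO YFP+ overlapped those of the other 3 groups.

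Annotated transcripts overlap several of these genes. Gm37881, on the strand of Il2ra, measured 17.0 and 13.6 FPKM in KO YFP+, 10.002 and 8.99 in KO YFP-, 21.3 and 17.2 in WT YFP+, and 12.0 and 10.04 in SRC-3ff. Gm42809, antisense to Il6ra, measured 15.1 and 11.2 in KO YFP+, 6.75 and 6.37 in KO YFP-, 12.8 and 15.6 in WT YFP+, and 9.20 and 6.35 in SRC-3ff. The use of strand in counting is not given in the sources used here, so Il6ra and Gm42809 reads cannot be told apart. Gm44876, antisense to Il4ra, was at most 0.104 FPKM.

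Ligands of these receptors were mostly at low levels. Of 16 listed genes, 4 passed the filter. Il4, the interleukin-4 gene, measured 0.0645 and 0 FPKM in KO YFP+, 9.32 and 12.7 in KO YFP-, 0.0764 and 0.116 in WT YFP+, and 3.15 and 5.26 in SRC-3ff. Il21, the interleukin-21 gene, measured 0.112 and 0.0327 in KO YFP+, 2.29 and 2.24 in KO YFP-, 0.119 and 0.0240 in WT YFP+, and 0.745 and 0.147 in SRC-3ff. Il4 passed the filter through KO YFP- and SRC-3ff alone, and Il21 through KO YFP- alone, so being higher there was built in by the filter and no test of them is given.

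The other 2 tested ligands were not called by limma in KO YFP+ against WT YFP+ or in KO YFP- against SRC-3ff. Over all tested genes, 0.757% and 0.644% were called in these comparisons. Il2 itself was not tested, with group means of 0.556 FPKM in KO YFP+, 1.04 in KO YFP-, 0.555 in WT YFP+ and 0.931 in SRC-3ff. Il9 and Tslp were listed at 0 in all 8 libraries.

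Some related receptor chains outside the set differed between the sorts. Of 13 listed genes, 8 were tested. Against KO YFP- limma called 3 of them lower and 0 higher in KO YFP+, while 5 did not pass. Over all tested genes, 3.46% were called lower and 1.44% higher in this comparison. Il12rb1, the shared chain of the interleukin-12 and interleukin-23 receptors, had group means of 11.7 ± 0.000155 FPKM in KO YFP+ and 30.8 ± 2.72 in KO YFP- (SD, n = 2 each; -1.32, limma adjusted p = 0.0038). The other 2 passed the filter through the groups where they were high, so their calls were partly built in and are not counted as support. Il9r, the interleukin-9 chain and a further partner of the common gamma chain, measured 0.619 and 0.293 in KO YFP+, 5.16 and 3.67 in KO YFP-, 0.261 and 0.651 in WT YFP+, and 3.30 and 3.69 in SRC-3ff. Il12rb2, the interleukin-12 signalling chain, averaged 0.0197 in KO YFP+ and 4.53 in KO YFP-.

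Against SRC-3ff, Il12rb1 was also lower in KO YFP+ (-0.97, limma adjusted p = 0.00732). Of the 8 chains, 0 passed in KO YFP+ against WT YFP+ or in KO YFP- against SRC-3ff, against 0.757% and 0.644% of all tested genes. The median of the 8 in KO YFP+ against WT YFP+ was 0.02, beside 0.01 over all tested genes.

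Kinases and STAT factors downstream of these receptors differed little between KO YFP+ and WT YFP+. Of 17 listed genes 16 were tested and 0 passed, against 0.757% of all tested genes. The smallest p-values belonged to Ptpn6, the phosphatase SHP-1 (0.27, limma adjusted p = 0.372), Shc1, an adaptor (-0.24, adjusted p = 0.4), and Stat4, the interleukin-12 STAT (-0.31, adjusted p = 0.401). Jak3, the kinase bound to the common gamma chain, averaged 93.2 ± 33.0 FPKM in KO YFP+ and 71.1 ± 12.3 in WT YFP+ (SD, n = 2 each; 0.35, interval -0.35 to 1.05). Stat5a and Stat5b, the main STAT factors for interleukin-2, differed by -0.19 (interval -0.70 to 0.31) and -0.04 (interval -0.38 to 0.29). Jak3, Stat5a and Stat5b, named here after their values were seen, thus had intervals that include 0.

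In KO YFP+ against KO YFP- limma called 1 of 16 lower and 0 higher, against 3.46% and 1.44% of all tested genes. The lower gene was Stat4 (38.8 ± 1.13 in KO YFP+ and 56.6 ± 5.01 FPKM in KO YFP-, SD, n = 2 each, difference -0.53, limma adjusted p = 0.0449). In KO YFP+ against SRC-3ff limma called 2 of 16 higher and 2 lower, against 4.15% and 6.09% of all tested genes. Of the higher, Stat2, a STAT of interferon signalling, differed by 0.94 (log2, limma adjusted p = 0.012). The lower were Jak2 (-0.65, limma adjusted p = 0.0387) and Stat4 (-0.48, limma adjusted p = 0.0408). Stat2 was named after its values were seen. In KO YFP- against WT YFP+ 1 gene was called higher, Ptpn11, the phosphatase SHP-2 (0.74, limma adjusted p = 0.021), against 5.90% of all tested genes. In WT YFP+ against SRC-3ff 1 was called higher, Stat2 (0.70, limma adjusted p = 0.0248), against 3.73% of all tested genes. In KO YFP- against SRC-3ff 0 passed, against 0.644%.

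Feedback and response genes of these receptors were all tested, 14 of 14. In KO YFP+ against WT YFP+ 0 passed, against 0.757% of all tested genes. Their median was -0.11 there, beside 0.01 over all tested genes. Cish, a STAT5-induced inhibitor named after its values were seen, averaged 45.4 ± 1.18 FPKM in KO YFP+ and 56.8 ± 10.8 in WT YFP+ (SD, n = 2 each; -0.30, interval -0.74 to 0.13). In KO YFP+ against KO YFP- limma called 2 of 14 higher and 1 lower, against 1.44% and 3.46% of all tested genes. Myc, a growth regulator, averaged 76.5 ± 4.73 in KO YFP+ and 48.9 ± 8.91 in KO YFP- (0.65, limma adjusted p = 0.0403), and Mcl1, a survival factor, 161 ± 9.90 in KO YFP+ and 117 ± 6.15 in KO YFP- (0.45, limma adjusted p = 0.0483; SD, n = 2 each). Prdm1, which encodes Blimp-1, was lower, at 2.39 ± 0.644 in KO YFP+ and 8.20 ± 1.62 in KO YFP- (-1.44, limma adjusted p = 0.0173).

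Prdm1 was also lower in KO YFP+ than in SRC-3ff (-1.26, limma adjusted p = 0.0203), the 1 call among the 14 there. It was the 1 call in WT YFP+ against SRC-3ff, again lower. Over all tested genes, 10.2% and 9.22% were called in these comparisons. In KO YFP- against WT YFP+ Prdm1 (1.34, adjusted p = 0.014) and Pim2, a kinase induced by cytokines (0.40, adjusted p = 0.0293), were higher, and Myc (-0.996, adjusted p = 0.00595) and Mcl1 (-0.56, adjusted p = 0.0164) lower. None of the 14 passed in KO YFP- against SRC-3ff. Over all tested genes, 0.644% were called there, and 9.27% in KO YFP- against WT YFP+. Prdm1 also marks effector Tregs and plasma cells. The effector T cell and plasma cell lists moved with the sort, and no list of effector Treg markers was used. The part of these cells in the Prdm1 differences was not tested.

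For each receptor chain, the 3 genes with the most similar pattern over the 8 libraries were taken by Pearson correlation of log2(FPKM + 1) among 6868 genes. These coefficients describe 8 points that fall into 4 groups, so the sort alone can give a high value. For Il2ra they were Gpkow (0.988), Mettl8 (0.985) and Slc35d1 (0.977), with Slc35d1 at 7.12 FPKM in KO YFP+, 2.45 in KO YFP-, 11.3 in WT YFP+ and 9.17 in SRC-3ff. For Il7r they were Sema4f (0.996), Sdc1 (0.992), the plasma cell marker syndecan-1, and Ccr6 (0.99), a chemokine receptor. Ccr6 averaged 13.0 FPKM in KO YFP+, 57.8 in KO YFP-, 14.7 in WT YFP+ and 94.4 in SRC-3ff, and Sdc1 averaged 0.253 in KO YFP+, 12.2 in KO YFP-, 0.0565 in WT YFP+ and 22.4 in SRC-3ff. Il7r thus ran beside a plasma cell marker in these libraries, and the part of plasma cell RNA in its level was not tested.

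The similar genes of the others were as follows. Il4ra was nearest to Peli1 (0.993), Tubb2a (0.991) and Bach2 (0.988), a transcription factor of resting lymphocytes, and Il6ra to Abtb2 (0.994), Trp53 (0.984) and again Bach2 (0.978). Il6st had Ephb6 (0.982) and Pecam1 (0.982) among its nearest. Il2rb was nearest to Jak2 (0.95), a member of the kinase list above, Sf3b3 (0.945) and Arhgap18 (0.943). Il15ra was nearest to Ptpn11 (0.965), Nkg7 (0.961), a gene of cytotoxic granules, and Zdhhc18 (0.96). Il21r was nearest to Kdm5b (0.985), Rnaset2b (0.959) and Irf9 (0.956), and Il2rg, which varied least, to Snx1 (0.954), Txndc11 (0.953) and Elovl1 (0.949).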

How the data were processed

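The deposited table holds FPKM per gene for 8 libraries made with the SMART-Seq v4 kit. Per the submitters' processing notes, the authors used Trim Galore, STAR and StringTie with mm10 (GRCm38). Versions, annotation and strand use: not given in the sources used here. Because FPKM keep no read counts, sequencing depth is unknown and intervals for counting error could not be had. Symbols were matched to GENCODE M21 by identifier (55227 matched, 260 did not).

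FPKM were used as deposited. On log2(FPKM + 1), limma 3.58.1 was run in R 4.3.3 (lmFit, then eBayes with trend), so fold changes of low genes are understated. One model of the 4 groups was fitted to the 8 libraries with 4 residual degrees of freedom, and it was tested on simulated data. With 2 libraries a side, the lowest two-sided p of an exact permutation test is 0.333, so calls depend on limma's pooling of the spread over genes. The labels do not say that each library is a separate animal, and p-values then measure the spread between these libraries, which may be technical. No 2 libraries held identical values (0 pairs).

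The numbers 84 and 85 stand in the titles of both knockout sorts. They were taken to pair the sorts as mice in the alternative with the mouse number as a block. The reported tests used the group only and left this pairing out. Deviations of the number 84 libraries from their group means correlated with r = 0.137 over 14134 genes, with the same sign for 7 of 9 receptor genes.

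The receptor genes and lists were chosen with earlier results of these data known. The genes named are the 9 receptor chains, Ncoa3, Foxp3, the 3 most similar genes of each chain among those with a mean of at least 5 FPKM (leaving out predicted genes, pseudogenes and antigen receptor segments), and of each list up to 3 genes with the smallest p in KO YFP+ against WT YFP+ and against KO YFP-. Others are said to have been named after their values were seen, or passed in a count of 5 or fewer. For 2 named genes no value is reported here. Alternatives were a pseudocount of 0.1, no filter, quantile normalization, a minimum of 5 FPKM, the median-of-ratios scaling, the mouse number as a block, only the 4 libraries compared, and leaving out each library. Tables and plots used Python 3.11.15, pandas 2.3.3 and matplotlib 3.10.9.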

Additional observations from a re-analysis of the deposited data

How the results depend on the processing

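Of 7 tested contrasts, the count of receptor genes called stayed at 0 for KO YFP+ against WT YFP+ and for the difference of differences under every alternative run. With no filter on low values the count was 1 for KO YFP+ against KO YFP- (3 with the filter), 1 for KO YFP- against WT YFP+ (6), 0 for KO YFP- against SRC-3ff (1) and 1 for WT YFP+ against SRC-3ff (2); more genes are then adjusted for. With a minimum of 5 FPKM it was 2 for KO YFP+ against SRC-3ff (1). With the mouse number as a replicate block it was 0 for KO YFP- against SRC-3ff, 2 for KO YFP+ against KO YFP- and 4 for KO YFP- against WT YFP+, and the block changed no other call of a receptor gene. With only the 4 libraries compared it was 0 for KO YFP- against SRC-3ff and 1 for WT YFP+ against SRC-3ff. With a library left out the count was 0 to 2 for KO YFP+ against KO YFP-, 1 to 2 for KO YFP+ against SRC-3ff, 2 to 3 for KO YFP- against WT YFP+, 0 to 1 for KO YFP- against SRC-3ff and 1 to 4 for WT YFP+ against SRC-3ff. Over all tested genes the counts over the alternatives were 25 to 115 for KO YFP+ against WT YFP+ (107 as reported), 140 to 726 against KO YFP- (693) and 215 to 1497 against SRC-3ff (1448). They were 597 to 1333 for KO YFP- against WT YFP+ (1310) and 0 to 129 against SRC-3ff (91), 400 to 1381 for WT YFP+ against SRC-3ff (1303), and 5 to 86 for the difference of differences (68).

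Over the single genes, 652 values under an alternative kept direction and side of the threshold, 45 fell below it, 6 came past it and 17 changed sign, none of them a called value. The differences that changed sign with a library left out ranged from -0.0013 to 0.31 (Il15ra) and -0.055 to 0.57 (Il7r) in KO YFP+ against WT YFP+, and from -0.18 to 0.18 (Il2ra) in KO YFP+ against SRC-3ff. In KO YFP- against SRC-3ff they ranged from -0.092 to 0.095 (Il2rb, -0.0598 with quantile normalization), -0.0028 to 0.12 (Il2rg), -0.43 to 0.013 (Il6st) and -0.019 to 0.25 (Il21r). In WT YFP+ against SRC-3ff Il2rg ranged from -0.087 to 0.032. In the difference of differences Il6st ranged from -0.31 to 0.13 and Il6ra from -0.015 to 0.46. The cause of these changes was not tested. The fit has 2 libraries a group and 4 residual degrees of freedom, and the depth is unknown.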

Other observations

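Il27ra, the interleukin-27 chain that pairs with gp130, was even across the groups, at 140 ± 3.53 FPKM in KO YFP+, 143 ± 5.17 in KO YFP-, 137 ± 4.29 in WT YFP+ and 146 ± 37.1 in SRC-3ff (n = 2 each, SD). Il10rb, a chain of the interleukin-10 receptor, was likewise at 44.5 ± 5.17 in KO YFP+, 46.3 ± 2.95 in KO YFP-, 43.9 ± 0.246 in WT YFP+ and 42.2 ± 1.66 in SRC-3ff (n = 2 each, SD). Both were named after their values were seen.

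Il2ra and Foxp3, which are commonly high together in Tregs, did not share a pattern across these groups. The ratio of Il2ra to Foxp3 was 4.55 and 4.04 in KO YFP+, 0.271 and 0.379 in KO YFP-, 3.64 and 5.68 in WT YFP+, and 0.522 and 0.55 in SRC-3ff. All 4 YFP+ libraries lay above the other 4 in this ratio, through lower Foxp3 in both YFP+ groups, while Il2ra was lower in KO YFP- than in each of the other groups.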
